A study of Mus musculus with 10 samples.

Results

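The protein coats of the early secretory pathway were examined in differentiating C2C12 cells after knockdown of *Fndc1*, through 10 genes chosen by name from the 55359 genes of the deposited table. *Sec13*, *Sec31a*, *Sec23a*, *Sec23b*, *Sec24a* and *Sec24d* encode 6 subunits of COPII, and *Copa*, *Copb1*, *Copb2* and *Copg1* encode 4 subunits of COPI. C2C12 is a mouse myoblast line whose cells fuse into myotubes when serum is lowered. Cells received 100 nM of a scrambled siRNA (si-Control, 5 libraries) or of an siRNA against *Fndc1* (si-*Fndc1*, 5 libraries), and by the sample labels all of them were grown with 20% FBS and collected after 4 days in 2% horse serum. The text of the series places collection at 48 h after transfection, so the time is given here as the labels have it. The paper's methods state in general that experiments were repeated independently, but neither they nor the labels tie each library to a culture of its own, and p-values therefore measure the spread between these libraries, which may be technical.

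COPII forms vesicles that carry newly made secretory and membrane proteins out of the endoplasmic reticulum (ER). The GTPase SAR1 recruits SEC23 and SEC24, the inner layer, in which SEC24 binds cargo and SEC23 stimulates the GTPase, and SEC13 with SEC31 then builds the outer cage. COPI, also called coatomer, is recruited to Golgi membranes by ARF GTPases and returns escaped ER proteins and Golgi enzymes. Its beta, gamma, delta and zeta subunits resemble the adaptors of the clathrin coat, and its alpha, beta-prime and epsilon subunits resemble an outer cage. In muscle cells and other cells that lay down matrix, collagens and membrane proteins leave the ER through COPII.

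The promoters of the coat genes were read from RefSeq (GRCm38.p6, 250 bases before to 50 after each start), in which 17 of the 18 coat genes had an entry and *Arcn1* had none. Transcription factors of the ATF6, XBP1 and CREB3 families are known to bind elements with the core TGACGTG. Searched on both strands, this core stood in 4 of the 17 genes, *Sec24d*, *Sec23a*, *Copb1* and *Copb2*. It stood in 2.01% of 32851 mouse promoters of the same length, a share that counts promoters, while the 17 genes had 19 promoter entries. Among tested genes with a promoter entry, 304 had the core and 8915 did not. The 4 windows are shown because they carry this shared sequence in genes without a common direction: *Sec24d* fell, *Copb1* and *Copb2* rose but not after adjustment for length and GC content, and *Sec23a* did not pass the test. They lie at chr3:123267246-123267545 (plus strand), chr12:59011968-59012267 (minus strand), chr7:114254631-114254930 (minus strand) and chr9:98563481-98563780 (plus strand), are written 5′ to 3′ along the gene, and have the core in capitals, as CACGTCA where it lies on the opposite strand.
Sec24d promoter: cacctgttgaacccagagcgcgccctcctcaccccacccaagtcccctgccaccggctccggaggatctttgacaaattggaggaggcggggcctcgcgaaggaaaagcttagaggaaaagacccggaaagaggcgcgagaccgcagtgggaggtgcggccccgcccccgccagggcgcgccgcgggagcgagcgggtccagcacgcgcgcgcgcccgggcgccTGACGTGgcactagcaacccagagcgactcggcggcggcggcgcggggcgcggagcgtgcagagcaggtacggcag
Sec23a promoter: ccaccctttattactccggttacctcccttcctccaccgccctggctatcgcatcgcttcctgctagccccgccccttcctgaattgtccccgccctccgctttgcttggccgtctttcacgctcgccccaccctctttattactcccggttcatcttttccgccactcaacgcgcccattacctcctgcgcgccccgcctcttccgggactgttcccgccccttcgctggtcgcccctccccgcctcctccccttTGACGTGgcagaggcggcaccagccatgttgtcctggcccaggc
Copb1 promoter: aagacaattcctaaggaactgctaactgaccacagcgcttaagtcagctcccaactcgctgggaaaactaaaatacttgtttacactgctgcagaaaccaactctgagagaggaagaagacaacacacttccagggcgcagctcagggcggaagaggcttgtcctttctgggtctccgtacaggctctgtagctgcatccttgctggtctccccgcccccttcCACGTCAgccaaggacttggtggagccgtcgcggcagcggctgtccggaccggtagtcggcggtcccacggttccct
Copb2 promoter: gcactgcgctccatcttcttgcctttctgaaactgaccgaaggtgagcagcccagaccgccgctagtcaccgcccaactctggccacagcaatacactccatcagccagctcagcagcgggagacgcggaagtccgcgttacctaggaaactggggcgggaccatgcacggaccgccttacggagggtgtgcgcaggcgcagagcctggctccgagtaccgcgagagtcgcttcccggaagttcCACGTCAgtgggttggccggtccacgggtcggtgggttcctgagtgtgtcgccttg
The first base of the core stood at position -26 in *Sec24d*, 7 in *Sec23a*, -27 in *Copb1* and -6 in *Copb2*, counted from the start as 1. The palindrome TGACGTCA, a cAMP response element, was found in 1.79% of promoters and among the coat genes in *Cope*. The ER stress response element was found in 0.12% of promoters and in no coat gene. The box CCAAT stood in 37.41% of promoters and in 4 coat genes (*Cope*, *Copz1*, *Sec23b*, *Sec24d*). The letters ACGTG, which TGACGTG contains, stood in 19.62% of promoters and in 13 coat genes, the GC box GGGCGG in 35.66% and in 13, and CACGTG in 7.15% and in none. The motifs were searched after the genes' values were known, and a match is a description of the sequence only.

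*Fndc1* itself, the targeted gene, ranged over 24.7 to 29.6 FPKM (fragments per kilobase of transcript, scaled to library size) among si-Control libraries and over 18.7 to 23.5 among si-*Fndc1* libraries. In edgeR's quasi-likelihood test, from which all fold changes below come, its counts fell by 0.40 on the log2 scale (SE 0.066, adjusted p = 0.000934). With the count scale adjusted for transcript length and GC content the difference was -0.07 (adjusted p = 0.301), and *Fndc1* transcripts have a GC content of 60.1%. All 10 muscle markers were expressed, with a summed level of 2758 to 3080 FPKM in the controls and 2633 to 3052 after knockdown. Of these markers 3 rose and 0 fell (log2 fold changes from -0.17 to 0.39), beside 17.3% and 17.2% of all tested genes. With the adjustment 2 rose and 1 fell, beside 11.4% and 12.2% of genes. Hepatocyte markers, among them *Alb*, *Apoa1* and *Apoa2*, summed to 0.0452 to 5.91 FPKM in the controls and 46.1 to 165 after knockdown, and 9 of 9 tested rose. Since all 5 si-*Fndc1* libraries held them, no comparison without such libraries was possible. Fibroblast markers summed to 378 to 420 and 226 to 248.9 FPKM, but the list was split. Of its 4 tested genes 1 rose and 1 fell (log2 fold changes from -0.78 to 0.39), beside 17.3% and 17.2% of all tested genes. Macrophage markers summed to at most 1.23 FPKM and endothelial markers to at most 0.292, and 4 of 5 adipocyte markers had no count in any library. Mitochondrial genes took 4.90% to 5.49% of the counts of control libraries and 5.82% to 6.91% after knockdown. The part of these differences in the coat genes' values was not tested, and in bulk RNA fewer cells of a type and less RNA per cell cannot be told apart. The si-Control libraries held 66771605 to 75995168 counts, and the si-*Fndc1* libraries 56332844 to 72839369.

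Of the 10 coat subunit genes, 4 rose (*Sec13*, *Sec23b*, *Copb1*, *Copb2*), 3 fell (*Sec31a*, *Sec24d*, *Copg1*) and 3 did not pass the test (*Sec23a*, *Sec24a*, *Copa*). The call was an adjusted p under 0.05 over all 13548 genes with a mean of at least 0.5 FPKM, which all 10 passed. It was met by 34.4% of these genes (17.3% up and 17.2% down). More abundant genes were called more often: 49.6% of the 6924 genes with a mean of at least 5 FPKM (24.8% up and 24.7% down). All of the 10 but *Sec24a* lie at that level, and 5 COPII and 3 COPI genes were called in that fit. All changes were small, from 0.0045 to 0.26 in absolute log2 fold change, beside a median of 0.17 over all tested genes. In COPII 2 of 6 rose and 2 fell, and in COPI 2 of 4 rose and 1 fell, so neither coat moved one way. In 5 of the 10 genes the FPKM of the groups did not overlap (3 higher and 2 lower in si-*Fndc1*), as in 25.1% of all tested genes (12.1% higher and 13% lower). The median log2 fold change was 0.04 for the COPII genes and 0.03 for the COPI genes, against 0.0043 for all tested genes. Without si-Control 1, si-Control 3, si-Control 5 or si-*Fndc1* 3, only 1 of the 4 COPI genes, *Copb1*, passed, with 31.1%, 29.5%, 30.3% and 30.9% of all genes called.

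**Figure D1:**
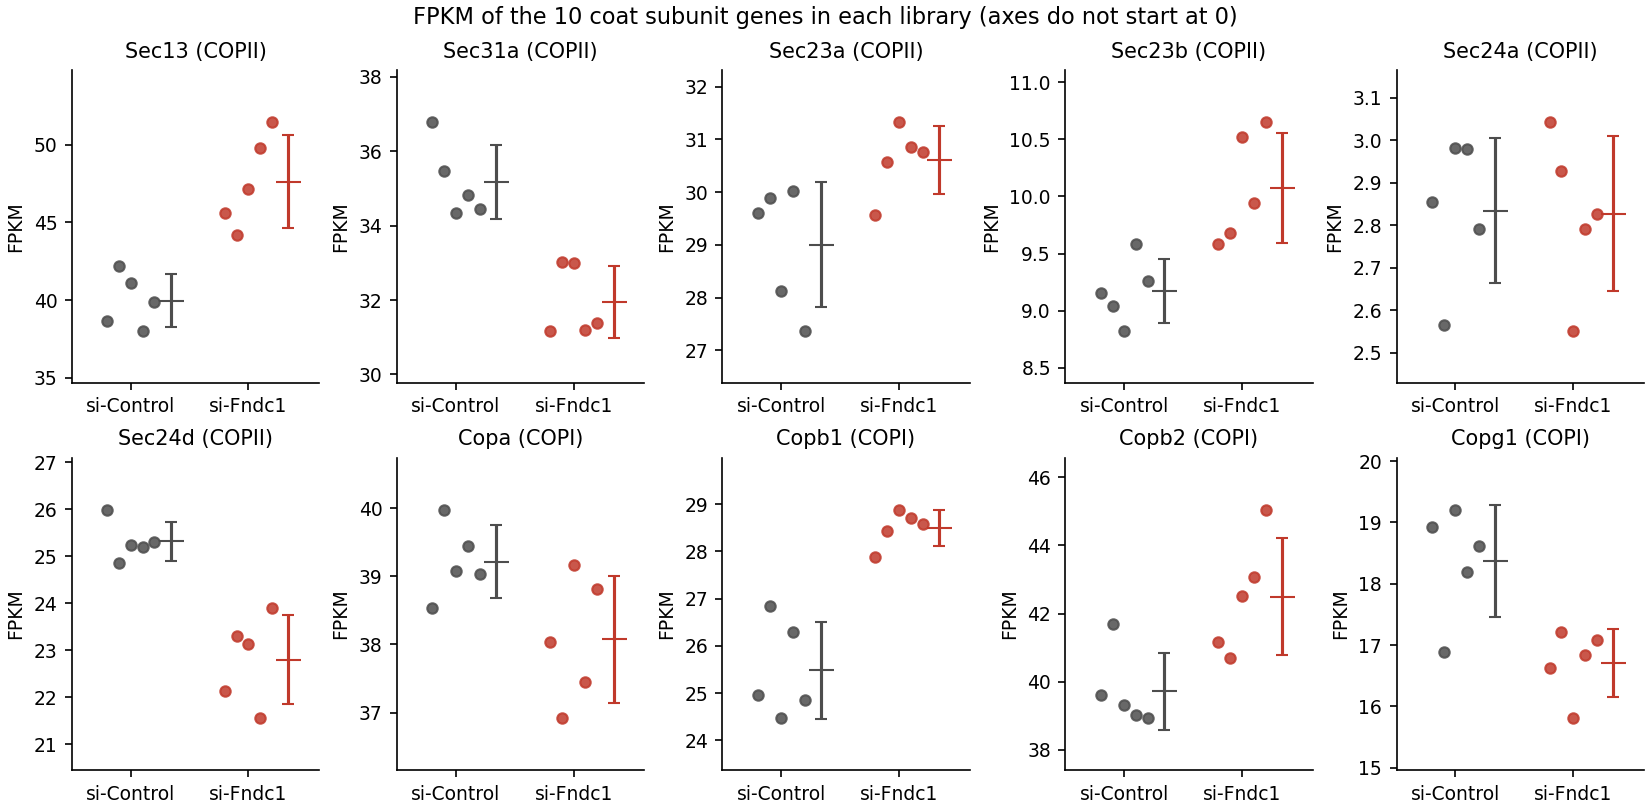
FPKM of the 10 coat subunit genes (vertical axes, which do not start at 0) in each of the 5 si-Control libraries (grey points) and 5 si-Fndc1 libraries (red points), with the mean and SD of each group at the right of its points. In Sec13, Sec23b and Copb1 every si-Fndc1 library lies above every si-Control library, in Sec31a and Sec24d every one lies below, and in the other 5 genes the groups overlap. The directions of Copb1, Copg1, Copa and Sec23a do not hold on the scale adjusted for length and GC content.

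In the outer cage of COPII, *Sec13* rose and *Sec31a* fell, the second only without adjustment for transcript length and GC content. *Sec13* (ENSMUSG00000030298, chromosome 6, 113705023 to 113717704, minus strand), whose protein also serves in the nuclear pore, lay at 38.7, 42.2, 41.1, 38.03 and 39.9 FPKM in si-Control 1 to 5 and at 45.6, 44.2, 47.2, 49.8 and 51.4 in si-*Fndc1* 1 to 5. Every si-*Fndc1* library was above every si-Control library. The group means were 40.0 ± 1.72 and 47.6 ± 2.98 FPKM (SD, n = 5 libraries per group). A log2 fold change of 0.26 was fitted (SE 0.0465, adjusted p = 0.00157), the highest of the 10. *Sec31a* (ENSMUSG00000035325, chromosome 5, 100509508 to 100564093, minus strand), the partner that forms the edges of the cage, lay at 36.8, 35.5, 34.3, 34.8 and 34.4 FPKM in si-Control and at 31.2, 33.0, 33.0, 31.2 and 31.4 in si-*Fndc1*. Here every si-*Fndc1* library was below every si-Control library, with a log2 fold change of -0.13 (SE 0.0333, adjusted p = 0.0112), but -0.03 (adjusted p = 0.581) after that adjustment. Its paralog *Sec31b* stayed at or below 0.0658 FPKM in all libraries and was not tested. The transcripts of *Sec13* and *Sec31a* have nearly the same GC content, 52.4% and 52.5%, and lengths implied by count and FPKM of 3541 and 8767 bases.

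In the inner layer, 1 of 2 SEC23 genes rose, and 2 of 4 SEC24 genes fell. *Sec23a* (ENSMUSG00000020986, chromosome 12, 59005169 to 59058803, minus strand), the more abundant SEC23, lay at 29.6, 29.9, 28.1, 30.0 and 27.4 FPKM in si-Control and at 29.6, 30.6, 31.3, 30.8 and 30.8 in si-*Fndc1*. The groups overlapped through si-*Fndc1* 1, and the log2 fold change of 0.09 did not pass the test (SE 0.0342, adjusted p = 0.0758). *Sec23b* (ENSMUSG00000027429, chromosome 2, 144398149 to 144432669, plus strand) lay at 9.15, 9.04, 8.83, 9.58 and 9.26 FPKM in si-Control and at 9.59, 9.68, 10.5, 9.94 and 10.6 in si-*Fndc1*. All si-*Fndc1* libraries were above, the lowest at 9.587 FPKM against the highest control at 9.583, and the gene rose (log2 fold change 0.14, SE 0.0396, adjusted p = 0.017). *Sec23b* gave 24.0% ± 0.780 of the summed SEC23 level in si-Control and 24.8% ± 0.667 in si-*Fndc1* (SD, n = 5).

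*Sec24d* (ENSMUSG00000039234, chromosome 3, 123061104 to 123159290, plus strand), a cargo adaptor of the inner layer and the most abundant SEC24 here, lay at 26.0, 24.9, 25.2, 25.2 and 25.3 FPKM in si-Control and at 22.1, 23.3, 23.1, 21.6 and 23.9 in si-*Fndc1*. The groups did not overlap, and the gene fell by 0.14 on the log2 scale (SE 0.032, adjusted p = 0.00555). *Sec24a* (ENSMUSG00000036391, chromosome 11, 51583091 to 51654461, minus strand) was the least abundant member, at 2.85, 2.57, 2.98, 2.98 and 2.79 FPKM in si-Control and 3.04, 2.93, 2.55, 2.79 and 2.83 in si-*Fndc1*. The ranges coincided almost fully, and the log2 fold change was 0.0045 (SE 0.0579, adjusted p = 0.963). Of the paralogs outside the 10 genes, *Sec24c* fell from 20.8 ± 1.16 to 17.8 ± 1.12 FPKM (log2 fold change -0.22, SE 0.0503, adjusted p = 0.00681), with si-*Fndc1* 2 at 19.7 inside the control range. *Sec24b* lay at 10.3 ± 0.769 and 9.38 ± 0.344 FPKM (log2 fold change -0.12, adjusted p = 0.0901).

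In the adaptor-like layer of COPI, *Copb1* and the delta subunit *Arcn1* rose and *Copg1* fell, and no one of these calls was kept after adjustment for length and GC content. *Copb1* (ENSMUSG00000030754, chromosome 7, 113814794 to 113853946, minus strand), the beta subunit, lay at 24.9, 26.8, 24.5, 26.3 and 24.8 FPKM in si-Control and at 27.9, 28.4, 28.9, 28.7 and 28.6 in si-*Fndc1*. The groups did not overlap, and the log2 fold change of 0.17 was the highest of the COPI genes (SE 0.0322, adjusted p = 0.00228), though it was -0.0095 after adjustment for length and GC content. *Copg1* (ENSMUSG00000030058, chromosome 6, 87864796 to 87890577, plus strand), a gamma subunit that binds cargo tails and ARF, lay at 18.9, 16.9, 19.2, 18.2 and 18.6 FPKM in si-Control and at 16.6, 17.2, 15.8, 16.8 and 17.1 in si-*Fndc1*. si-Control 2 lay within the si-*Fndc1* range, and the log2 fold change was -0.13 (SE 0.0387, adjusted p = 0.025), but 0.01 after the adjustment. The call of *Copg1* was lost without any of si-Control 1, si-Control 3, si-Control 5, si-*Fndc1* 1 or si-*Fndc1* 3, with a highest adjusted p of 0.0624. Its paralog *Copg2* lay at 12.02 ± 0.377 and 12.6 ± 0.482 FPKM (log2 fold change 0.07, adjusted p = 0.13, -0.03 after the adjustment). *Arcn1* rose by 0.09 on the log2 scale (adjusted p = 0.0259, 0.0578 without si-Control 1, 0.055 without si-Control 3 and 0.0539 without si-*Fndc1* 5), with no overlap between the groups. The zeta subunits *Copz1* and *Copz2* did not pass, at -0.09 (adjusted p = 0.0865) and 0.16 (adjusted p = 0.193).

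In the cage-like layer of COPI, 1 of 3 genes, *Copb2*, rose, and its call was lost after the adjustment. *Copa* (ENSMUSG00000026553, chromosome 1, 171910096 to 171949892, plus strand), the alpha subunit, which binds the ER retrieval signal, lay at 38.5, 40.0, 39.1, 39.4 and 39.0 FPKM in si-Control and at 38.03, 36.9, 39.2, 37.5 and 38.8 in si-*Fndc1*. The groups overlapped, and the log2 fold change was -0.04 (SE 0.0265, adjusted p = 0.335), with a value of 0.01 after the adjustment. *Copa* shares 267 bases of its span with *Ncstn* on the other strand, a gene with 31.1% of its mean count, and no source used here tells if reads were counted by strand. *Copb2* (ENSMUSG00000032458, chromosome 9, 98445774 to 98470435, plus strand), the beta-prime subunit, lay at 39.6, 41.7, 39.3, 39.0 and 38.9 FPKM in si-Control and at 41.2, 40.7, 42.5, 43.1 and 45.1 in si-*Fndc1*. si-Control 2 was above the lowest pair of si-*Fndc1* libraries, and the log2 fold change was 0.10 (SE 0.0341, adjusted p = 0.0349). The call was the least stable of the 7: it was kept in 8 of 22 other analyses, and it was lost when any of si-Control 1, 3, 4 or 5 or si-*Fndc1* 3, 4 or 5 was left out (highest adjusted p 0.077). *Cope*, the epsilon subunit, did not pass, at 0.03 (adjusted p = 0.733).

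With paralogs summed by position, the COPII cage and inner layer each held a position higher and a position lower in mean than the controls. These sums were chosen after the values were seen, and are given with no test. SEC24, from 4 genes, went from 59.3 ± 1.79 to 52.8 ± 1.9 FPKM, a ratio of 0.892, with all si-*Fndc1* libraries below the controls. SEC31 had a ratio of 0.909, also without overlap, SEC13 a ratio of 1.19, and SEC23 a ratio of 1.07 with overlap. After adjustment for length and GC content *Sec31a*, nearly all of SEC31, was at -0.03 and *Sec23a*, most of SEC23, at -0.08. Neither passed there, while *Sec13* (0.26), *Sec23b* (0.14), *Sec24c* (-0.16) and *Sec24d* (-0.12) kept their calls. In COPI the ratios ran from 0.965 for gamma to 1.12 for beta, and 2 of 7 positions, beta and delta, did not overlap between the groups, near the 25.1% of all tested genes. Zeta was the most abundant COPI position at 57.2 ± 3.01 and 58.5 ± 3.86 FPKM, and delta the least at 16.1 ± 0.187 and 17.1 ± 0.596.

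**Figure D2:**
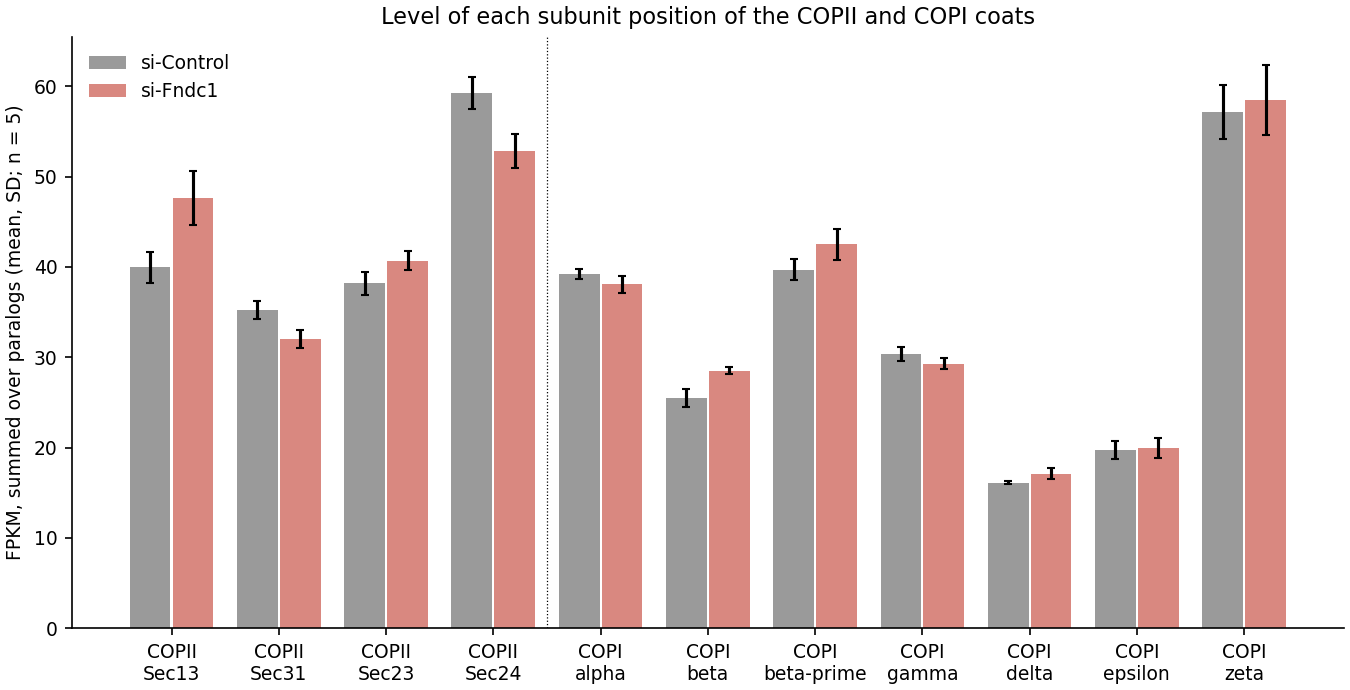
Level of each subunit position of COPII (left of the dotted line) and COPI (right) in FPKM summed over its paralogs, as the mean of 5 libraries with the SD, for si-Control (grey) and si-Fndc1 (red). SEC13 stands higher and SEC24 lower in si-Fndc1 (ratios 1.19 and 0.892), and the COPI ratios lie between 0.965 and 1.12. The higher beta bar does not hold on the scale adjusted for length and GC content. On that scale Sec31a was at -0.03 and Sec23a at -0.08, and neither passed.

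Ratios of paralogs within a library compared genes that fill the same position, and 3 were tested by two-sided exact permutation over the 252 ways to split the 10 libraries (smallest possible p 0.00794). The ratio of *Copg2* to *Copg1* was 0.656 ± 0.0479 in si-Control and 0.754 ± 0.0452 in si-*Fndc1* (SD, n = 5; exact p = 0.0159, adjusted over the 3 ratios 0.0476), though the ranges overlapped between 0.690 and 0.727. Without any single library its exact p was at most 0.0317, unadjusted. On the scale adjusted for length and GC content the difference between these paralogs was not kept, with log2 fold changes of -0.025 for *Copg2* and 0.0125 for *Copg1*. The ratio of *Sec24d* to *Sec24a* was 8.96 ± 0.516 and 8.10 ± 0.687 (exact p = 0.0397, adjusted 0.0595). The ratio of *Sec23b* to *Sec23a* was 0.317 ± 0.0136 and 0.329 ± 0.0118 (exact p = 0.151, adjusted 0.151). On the scale adjusted for length and GC content, *Sec24d* was at -0.115 and *Sec24a* at 0.0019. *Sec23b* was at 0.138 and *Sec23a* at -0.08 there, further apart than the 0.143 and 0.0855 without the adjustment. No ratio was tested on the adjusted scale.

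Fold changes of all genes ran with the GC content of their transcripts and, more weakly, with transcript length. The coat genes lay within the GC trend to unequal degrees. Across the 11185 tested genes with transcripts in the reference, the Spearman correlation of log2 fold change and GC content was -0.53. With implied transcript length it was -0.20. Both describe genes across the same 10 libraries, which are no independent replicates. Implied lengths were 6207 bases for *Copb1*, 7062 for *Copb2*, 10483 for *Copa* and 12246 for *Copg1*. The adjustment below takes length and GC content together, and the share of each in its effect on a coat gene was not tested. The median log2 fold change was 0.20 among the 1551 genes under 44% GC and -0.17 among the 2449 genes of 56% or more. The 4 COPI genes stood in the reverse order of their GC content: *Copb1* (42.5%), *Copb2* (46.0%), *Copa* (48.9%) and *Copg1* (52.0%). With the COPI subunits outside the 10 genes this order did not hold. *Copz2* (54.36%) was at 0.16 and *Cope* (57.62%) at 0.03, both above *Copa* and *Copg1*. *Arcn1* (43.96%), at 0.09, lay slightly below *Copb2*, while *Copg2* and *Copz1* kept to the order. *Sec13* (52.4%) and *Sec23b* (49.0%) lay above the median of genes of like GC content, -0.02 for 50% to 53% and 0.04 for 47% to 50%, and *Sec24d* (50.4%), *Sec31a* (52.5%) and *Copg1* (52.0%) lay below it. *Copa* (-0.04), *Sec23a* (0.09 against 0.20) and *Sec24a* (0.0045 against 0.11) also lay below the medians of their classes.

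**Figure D3:**
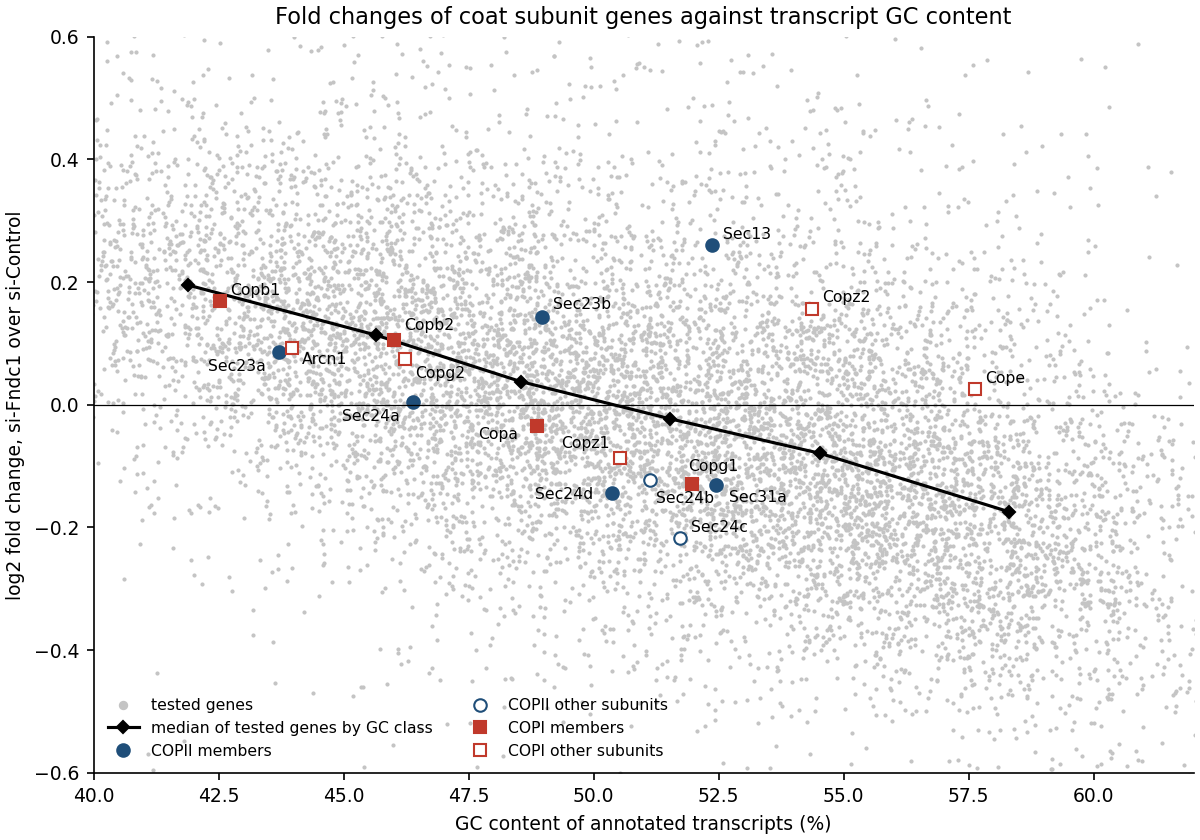
Log2 fold change of si-Fndc1 over si-Control (vertical axis) against the GC content of annotated transcripts in percent (horizontal axis) for tested genes (grey; 862 of 11185 lie outside the axes), with the median of 6 classes of GC content (black) and the coat subunit genes of COPII (blue circles) and COPI (red squares; open symbols are subunits outside the 10 genes). Copb1 and Copb2 lie close to the black line, Sec13 and Sec23b lie well above it, and Sec24d, Sec31a, Copg1, Sec23a, Sec24a and Copa lie below it.

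When each library was adjusted for the trend of counts with transcript length and GC content, 3 of the 10 genes passed, *Sec13* and *Sec23b* up and *Sec24d* down, beside 23.6% of the 11185 genes (37.9% of the same genes without the adjustment). *Sec13* kept its log2 fold change at 0.26 (adjusted p = 0.00133), *Sec23b* had 0.14 (adjusted p = 0.0284) and *Sec24d* -0.12 (adjusted p = 0.0194). *Sec31a* went to -0.03 (adjusted p = 0.581). *Sec23a* turned to -0.08 (adjusted p = 0.0899) and *Sec24a* stayed at 0.0019. None of the 4 COPI genes passed in this edgeR fit, nor did any have an unadjusted p under 0.05, with values from -0.0095 for *Copb1* to 0.02 for *Copb2* and adjusted p from 0.727 to 0.861. Of the other subunits, *Sec24c* stayed down at -0.16 (adjusted p = 0.0259), *Copz1* (-0.11, adjusted p = 0.0355) and *Cope* (0.18, adjusted p = 0.0168) passed, and *Arcn1* did not (0.09, adjusted p = 0.128). Whether the trend arose in the cells or in the libraries was not tested.

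**Figure D4:**
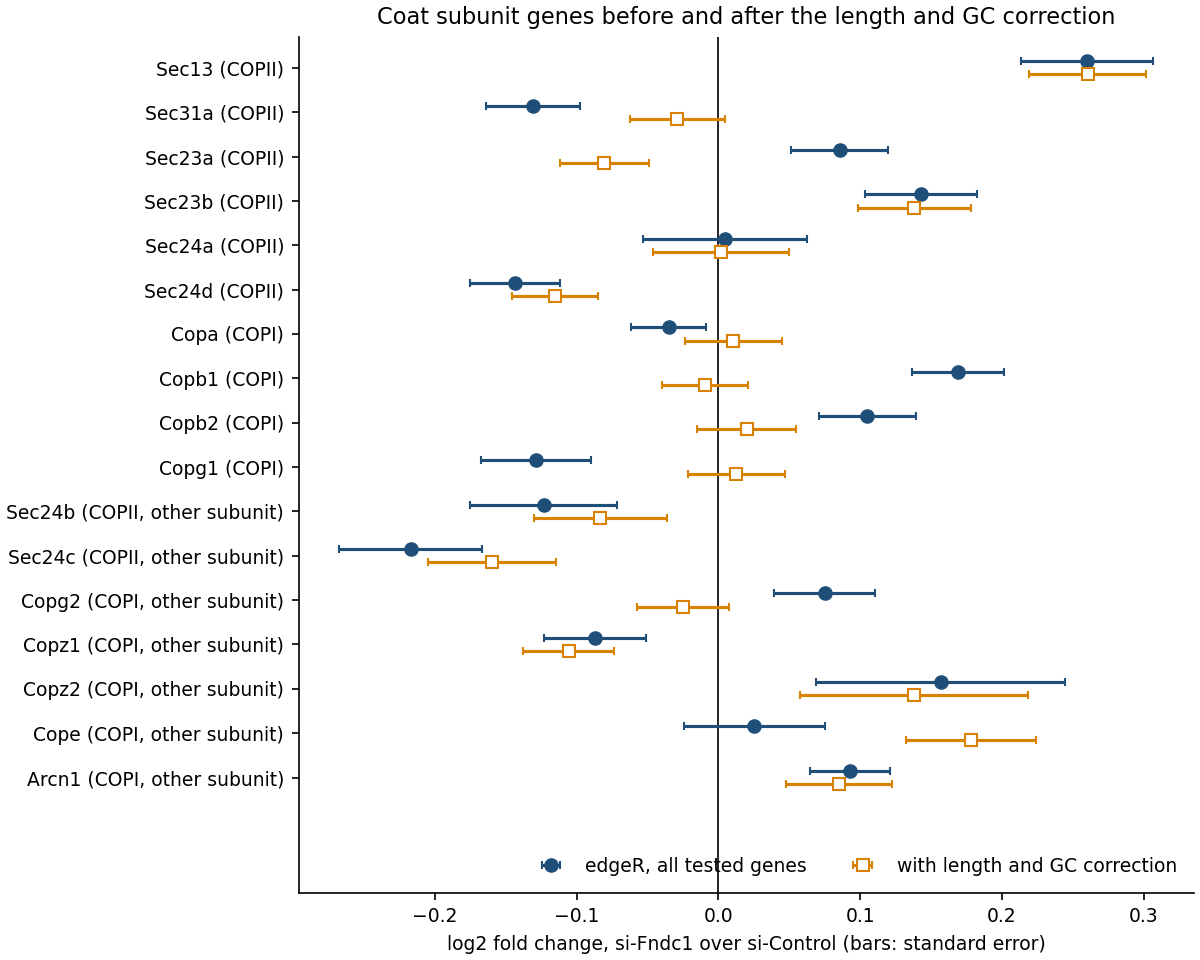
Log2 fold change with its standard error (horizontal axis) of the 17 tested coat subunit genes (vertical axis) from edgeR over all tested genes (blue circles) and with the adjustment for transcript length and GC content (open orange squares). The 4 COPI genes of the set move to near 0 with the adjustment, Copb1 from 0.17 to -0.0095 and Copg1 from -0.13 to 0.01, while Sec13 stays at 0.26.

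The genes that start and shape both coats moved in mixed directions too. Of 12 tested COPII site and assembly factors, 2 rose and 3 fell, near the share of all tested genes (34.4% called, 17.3% up and 17.2% down). *Tfg*, which organises ER exit sites, rose by 0.44 on the log2 scale (adjusted p = 2e-05), and *Pdcd6*, a calcium sensor that binds SEC31A, rose by 0.24 (adjusted p = 0.000655). *Preb*, the exchange factor that loads SAR1, had -0.26 (adjusted p = 0.0118), the scaffold *Sec16b* -0.15 (adjusted p = 0.0449) and *Sec23ip* -0.10 (adjusted p = 0.0254). *Sar1a* (0.18, SE 0.398, adjusted p = 0.768) and *Sar1b* (-0.02, SE 0.0606, adjusted p = 0.825) did not pass. Libraries of the same group differed widely in *Sar1a*: controls spanned 23.5 to 70.0 FPKM, knockdown libraries 27.2 to 78.0. With this spread the test cannot tell whether *Sar1a* changed. With the adjustment for length and GC content, *Tfg* (0.20) and *Sec23ip* (-0.13) passed in the same direction, and *Sar1b* passed with -0.41 (adjusted p = 0.000101).

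Of 9 tested genes of the ARF cycle, which recruits COPI, 1 rose and 5 fell, beside 17.3% and 17.2% of all tested genes. *Arf4* rose by 0.45 on the log2 scale (adjusted p = 7.81e-06). *Gbf1*, the exchange factor of ARFs at the cis-Golgi, had -0.38 (adjusted p = 0.000399), *Arf3* -0.23 (adjusted p = 0.000376), *Arf5* -0.18 (adjusted p = 0.011), *Arf1* -0.16 (adjusted p = 0.0118) and *Arfgap3* -0.13 (adjusted p = 0.0491). *Arf4* (0.22), *Gbf1* (-0.22) and *Arf1* (-0.25) passed with the adjustment as well.

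Cargo receptors that travel in these coats held 8 rises and 4 falls among 18 tested, beside 17.3% and 17.2% of all tested genes, with a median log2 fold change of 0.11. The p24 proteins *Tmed5* (0.45, adjusted p = 0.000146), *Tmed7* (0.33, adjusted p = 0.000122) and *Tmed4* (0.19, adjusted p = 0.00194) rose, whereas *Tmed2* (-0.47, adjusted p = 0.00378) and *Tmed1* (-0.26, adjusted p = 0.00661) fell. Of the KDEL receptors, *Kdelr2* fell (-0.09, adjusted p = 0.027), while *Kdelr1* (0.24, adjusted p = 0.00251) and *Kdelr3* (0.14, adjusted p = 0.0367) rose. Of the lectins, *Lman2* fell (-0.08, adjusted p = 0.0375) and *Lman1* rose (0.19, adjusted p = 0.00929). *Lman2* was 0.03 and *Kdelr3* -0.02 after the adjustment, the other 8 named here kept their direction and passed, and *Tmed3* passed only there (0.19, adjusted p = 0.0204).

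Tethers and SNAREs between ER and Golgi held 2 rises and 3 falls among 16 tested, near the 34.4% called among all tested genes. *Scfd1* (0.21, adjusted p = 0.00699) and *Uso1* (0.20, adjusted p = 0.00293), a tether of COPII vesicles, rose. *Nbas* (-0.17, adjusted p = 0.0128), *Golga2* (-0.14, adjusted p = 0.00182) and *Ykt6* (-0.10, adjusted p = 0.049) fell. Of these 5, *Nbas* and *Ykt6* passed with the adjustment, and *Gosr1* (-0.19, adjusted p = 0.00673) and *Bet1* (-0.17, adjusted p = 0.0345) passed only there, *Bet1* with a turned direction.

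The clathrin coat and its adaptors, a coat of later compartments, held 2 rises and 6 falls among 16 tested, beside 17.3% and 17.2% of all tested genes, with a median log2 fold change of -0.10. *Ap3m1* (0.27, adjusted p = 0.000124) and *Ap2s1* (0.15, adjusted p = 0.0232) rose. The light chain *Clta* (-0.26, adjusted p = 0.000348) and the adaptor *Ap2a1* (-0.23, adjusted p = 0.00177) were among those that fell, and *Ap2a1* was -0.02 after the adjustment. The heavy chain *Cltc* passed only with the adjustment (-0.20, adjusted p = 0.015).

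Of the 10 listed transcription factors linked with secretory capacity, 7 were tested, of which 4 fell and 3 did not pass, beside 17.2% of all tested genes that fell. *Creb3l1* went from 88.2 to 62.5 mean FPKM (log2 fold change -0.49, adjusted p = 8.53e-06), *Atf6b* fell by 0.41 (adjusted p = 0.000265), *Creb3* by 0.29 (adjusted p = 0.00309) and *Creb3l2*, known for its action on SEC23 genes in cartilage, by 0.26 (adjusted p = 0.000482). All 4 also passed with the adjustment, at -0.34, -0.19, -0.32 and -0.23. *Xbp1* and *Atf6* did not pass (log2 fold change -0.04 and 0.03, adjusted p = 0.503 and 0.485). Beside these values the 4 genes shown above with the core TGACGTG had log2 fold changes of 0.17 (*Copb1*), 0.10 (*Copb2*), 0.09 (*Sec23a*) and -0.14 (*Sec24d*). With the adjustment they were at -0.0095, 0.02, -0.08 and -0.12 in the same order. Of 304 tested genes with this core 19.1% rose and 18.4% fell, against 17.2% and 18.7% of the 8915 other tested genes with a promoter entry. A link between the factors and these genes was not tested.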

How the data were processed

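RNA-sequencing libraries of C2C12 cells (5 si-Control, 5 si-*Fndc1*) were grouped by their labels. The authors deposited unnormalized read counts per gene and an FPKM value beside each count, listed as 0.0001 where no read was counted. The paper's methods name TopHat, mm10 and htseq-count, the series text names STAR and mm9, and the submitters' processing notes list GRCm39, cutadapt 1.9 and FastQC. How FPKM were made and whether reads were counted by strand is not given in the sources used here. Coordinates are those the table lists. The paper's methods name fewer libraries than were given here, and all 10 were used.

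Counts were tested with edgeR 4.0.16 (quasi-likelihood, TMM, R 4.3.3) for genes whose FPKM averaged 0.5 or more, with Benjamini-Hochberg adjustment over all of them and a threshold of 0.05. DESeq2 1.42.0, limma 3.58.1 on log2(FPKM + 1), other scalings and filters, each library left out and a replicate block were alternatives. A further alternative used offsets per library from Huber splines (5 degrees of freedom) of log counts on implied length and transcript GC content (GENCODE transcripts on NCBIM37, matched by identifier). The 10 genes and all lists were chosen with earlier results of these data known. Every coat subunit was named, and from each further list the 3 smallest p-values and genes behind counts of 5 or fewer. Paralogs of these and genes that passed only with the length and GC offset were named after their values were seen. The edgeR fit was tested on simulated data before use. It recovered 12 of 50 genes at a simulated fold of 1.25 and 10 of 50 at 0.8. At folds of 2 and 0.5 it recovered 46 of 50 and 45 of 50. The changed genes were drawn from almost all levels of expression, so these shares do not give the sensitivity for the coat genes. A gene that did not pass may still have changed slightly. Counts of libraries of a group differed by more than sampling noise in all 20 pairs (chi-square divided by its degrees of freedom, 39.97 or more).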

Additional observations from a re-analysis of the deposited data

Results flagged for a closer look

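In 2 of 34 groups of 5 libraries examined (17 coat subunit genes in both conditions) 1 library lay far from the other 4, by a gap to its neighbour that exceeded 0.71 of the whole range, which chance gives in about 1 in 20 groups. *Copb2* stood at 41.7 FPKM in si-Control 2, beside a group median of 39.3. *Sec24c* stood at 19.7 FPKM in si-*Fndc1* 2, beside a group median of 17.6.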

How the results depend on the processing

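*Sec13* kept its direction and its call in all 22 other analyses, with log2 fold changes from 0.20 to 0.29. With the length and GC correction, 2642 of 11185 genes were called, against 4244 of the same genes without it and 4663 of all 13548 tested. COPI genes called went from 3 to 0, the median log2 fold change was -0.0136 for COPII and 0.0116 for COPI genes, and *Fndc1* was at -0.0669. *Sec23a* (-0.0804), *Copa* (0.0106), *Copb1* (-0.0095), *Copg1* (0.0125) and *Copg2* (-0.025) turned direction. The replicate numbers did not pair the libraries: same-numbered deviations correlated at -0.0553 to 0.0643, and 1 of 5 si-Control libraries correlated best with its own number. With a replicate block 3572 genes, 2 COPII and 1 COPI genes were called, and *Sec31a* had an adjusted p of 0.052. With the length and GC correction and the replicate block together, 1749 genes, 1 COPII and 0 COPI genes were called, the medians were -0.0134 and 0.0115, *Fndc1* was at -0.0676, and the reversed values were -0.0804 (*Sec23a*), 0.0104 (*Copa*), -0.0093 (*Copb1*), 0.0126 (*Copg1*) and -0.0253 (*Copg2*). Why these values changed was not tested. The median of COPII genes was 0.0846 with a mean of at least 5 FPKM, where *Sec24a* was left out, and 0.0254 with quantile-normalized values, which gave -0.0156 for COPI genes. *Sec24a*, with no call, was below 0 with total counts only (-4.981e-05), limma on log2(FPKM + 1) (-0.0027), limma on log2(FPKM + 0.1) (-0.0037), quantile-normalized values (-0.0049) and without 1 of 4 libraries (range over all 10 left out, -0.0305 to 0.0388). Leaving out each library gave 4000 to 4627 genes called, 4 COPII genes each time and 1 to 3 COPI genes. The log2 ratio of *Sec24d* to *Sec24a* then ranged from -0.19 to -0.11 and lost an unadjusted p under 0.05 in 7 of 10 cases (highest exact p 0.119), and that of *Sec23b* to *Sec23a* from 0.0375 to 0.0802, passing without si-Control 5. An unfiltered fit called 4164 of 28952 genes.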

Other observations

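In the annotation of the deposited table, the term COPII vesicle coat was carried by 15 genes, among them all 6 COPII genes examined. Of 13 tested, 3 rose and 3 fell. The term COPI vesicle coat was carried by 12 genes, all tested, among them all 4 COPI genes examined, and 3 rose and 1 fell. Of all tested genes 34.4% were called, 17.3% up and 17.2% down, so both terms lay near that share.

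Within the SEC24 family the order of levels was the same in both groups, although the family's sum was lower in si-*Fndc1*. *Sec24d* gave 42.8% ± 1.13 of the summed SEC24 FPKM in si-Control and 43.2% ± 1.53 in si-*Fndc1*, *Sec24c* 35.1% ± 1.29 and 33.7% ± 1.09, *Sec24b* 17.3% ± 1.0 and 17.8% ± 0.494, and *Sec24a* 4.78% ± 0.160 and 5.35% ± 0.326 (SD, n = 5). *Copz2*, one of the zeta subunits, gave 50.5% ± 3.28 and 54.7% ± 1.96 of the zeta level. No test was made of these shares.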
